A study of Mus musculus with 4 samples.

Results

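Transcripts of the cytosolic ribosome and of the mitochondrial genome were followed in kidney nuclei. The genes were picked by a rule on their names, which was set with earlier results of these data known. They are every gene whose symbol follows the pattern of a ribosomal protein (Rpl, Rps or Rplp, a number and at most 1 closing letter a, l or x), Rpsa, and every symbol that starts with mt-. The rule found 91 of the 24468 genes in the table of kidney clusters, namely 78 ribosomal protein genes and 13 mitochondrially encoded ones, and all 91 are also among the 21312 genes of the proximal tubule table.

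The mice were male C57BL/6. The Cis9w group received 4 weekly injections of 8 mg/kg cisplatin, a platinum compound used against tumours and toxic to tubule cells, and its kidneys were taken at week 9 after the first injection. The CT9w group was untreated. Each group had 2 samples of cortex with outer medulla. No label gives the age of the animals. RNA of isolated nuclei was counted as unique molecular identifiers (UMIs), a count of captured molecules, in a droplet assay that primes on poly(A) tails. Both deposited tables pool nuclei and no column belongs to 1 sample, so no spread between animals could be had. No source used here says whether the proximal tubule table holds 1 library of each group or both. In the proximal tubule table the Cis9w pool held 8557662 UMIs and the CT9w pool 5123727 UMIs. The 17 clusters, which pool both groups, held from 254460 UMIs (mixed-2) to 7425098 UMIs (PT-S2/S3). Intervals below are 95% Clopper-Pearson intervals from UMI counts. They cover counting error only and leave out differences between nuclei and between animals.

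Cytosolic ribosomes are built from a large and a small subunit, each a shell of proteins around ribosomal RNA, and the stalk proteins on the large subunit recruit translation factors. The mRNAs of these proteins are short, abundant and translated in the cytoplasm, where their output is set together through a tract of pyrimidines at their start and the kinase mTOR. The mitochondrial genome encodes subunits of respiratory complexes I, III, IV and V. Its RNA is made, and for most genes polyadenylated, inside mitochondria. In a preparation of nuclei both kinds of RNA therefore largely belong to the cytoplasm. Laboratories often read the share of mitochondrial RNA as a measure of purity. The proximal tubule reabsorbs most of the filtrate and is dense in mitochondria.

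The sequences of members on which the results turn were read from GENCODE M21 transcripts (GRCm38, the assembly also called mm10), with the gene's span given for each. The 2 members with the shortest coding sequences are shown because coding length went with the difference between Cis9w and CT9w. Capitals mark the start and stop codons. Rpl41 lies at chr10:128548114-128549305 on the minus strand and Rpl39 at chrX:37082520-37085402 on the minus strand. Their coding sequences have 78 and 156 bases, stop codon included.
Rpl41: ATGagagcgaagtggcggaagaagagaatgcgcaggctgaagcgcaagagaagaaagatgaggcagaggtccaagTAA
Rpl39: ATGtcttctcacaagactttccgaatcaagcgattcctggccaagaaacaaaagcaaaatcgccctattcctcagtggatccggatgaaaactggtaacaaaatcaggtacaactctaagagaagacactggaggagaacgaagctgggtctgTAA

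Rps27 (chr3:90212522-90213651, minus strand) and its paralog Rps27l (chr9:66946086-66949516, plus strand) are shown as a pair because their values between Cis9w and CT9w lay apart. Both coding sequences have 255 bases with no gap between them. They differ at 61 bases, marked by capitals, and are identical at 76.1% of positions.
Rps27: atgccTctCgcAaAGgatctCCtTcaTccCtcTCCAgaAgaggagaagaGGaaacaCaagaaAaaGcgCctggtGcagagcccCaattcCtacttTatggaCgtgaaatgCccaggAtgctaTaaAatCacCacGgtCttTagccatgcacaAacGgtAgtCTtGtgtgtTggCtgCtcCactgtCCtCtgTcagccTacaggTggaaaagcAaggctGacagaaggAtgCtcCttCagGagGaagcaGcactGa
Rps27l: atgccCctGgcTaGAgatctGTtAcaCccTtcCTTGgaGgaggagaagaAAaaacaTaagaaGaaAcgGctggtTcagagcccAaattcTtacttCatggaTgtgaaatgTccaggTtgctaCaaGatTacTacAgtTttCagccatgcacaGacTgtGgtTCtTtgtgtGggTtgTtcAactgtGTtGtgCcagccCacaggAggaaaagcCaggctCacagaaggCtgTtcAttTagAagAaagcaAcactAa

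On the mitochondrial genome several neighbours share bases. A read in a stretch shared by neighbours on the same strand cannot be given to 1 gene. The end of mt-Atp8 runs into mt-Atp6 over 43 bases (chrM:7927-7969), and the end of mt-Nd5 meets that of mt-Nd6, which lies on the opposite strand, over 14 bases (chrM:13552-13565). The closing stretches are shown on the plus strand with the shared bases in capitals.
mt-Atp8: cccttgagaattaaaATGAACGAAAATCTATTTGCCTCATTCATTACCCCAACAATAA
mt-Nd5: ttatcttatactcaaTTAATCTCGAGTAA

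Across kidney cell types, both kinds of transcript were a small part of the UMIs and were spread unevenly. Ribosomal protein transcripts made up 0.654% of UMIs (interval 0.641 to 0.668) in PT-S3-1, a proximal tubule cluster of the third segment, and 0.189% (0.184 to 0.193) in PT-S2. Mitochondrially encoded transcripts made up 0.251% (0.243 to 0.260) in PT-S3-1 and 0.0660% (0.0634 to 0.0687) in PT-S3-2. The highest share was 3.47 times the lowest for ribosomal protein transcripts and 3.80 times the lowest for mitochondrially encoded ones. The authors made the clusters from the same nuclei, so these levels are a description.

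The order of the clusters was much alike for both kinds. For ribosomal protein transcripts PT-S3-1 was followed by mixed-2 at 0.630%, EC1 (endothelium) at 0.547%, immune cells at 0.496% and EC2 at 0.386%. Mixed-1 followed at 0.360%, podocytes at 0.335% and the thick ascending limb (TAL) at 0.285%. The other 9 clusters lay between 0.189% and 0.25%, among them PT-injury/repair at 0.25%. The intervals of PT-S3-1 and mixed-2 overlapped, as did those of Mixed-1 and podocytes, and those of neighbours among PT-injury/repair, CNT, PC and IC-A/IC-B and among PT-S3-2, DCT+CNT and PT-S1. Elsewhere in the order, neighbouring intervals did not overlap.

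For mitochondrially encoded transcripts the 4 leading clusters were the same, with mixed-2 at 0.236%, EC1 at 0.233% and immune cells at 0.193%. TAL, a segment rich in mitochondria, came next at 0.143%, followed by podocytes at 0.135%. PT-S1 had 0.0861% and PT-injury/repair 0.0726%, against 0.0670% in PT-S2 and 0.0676% in PT-S2/S3. The intervals of PT-S3-1, mixed-2 and EC1 overlapped from neighbour to neighbour, and so did those of the 6 lowest clusters. The same held from TAL through podocytes, Mixed-1, EC2 and CNT to IC-A/IC-B, so TAL was not set apart from podocytes. Over the 17 clusters the log2 sums of both kinds had a Pearson r of 0.94. The clusters share libraries and each column has the same total, so r is given as a description only.

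**Figure D1:**
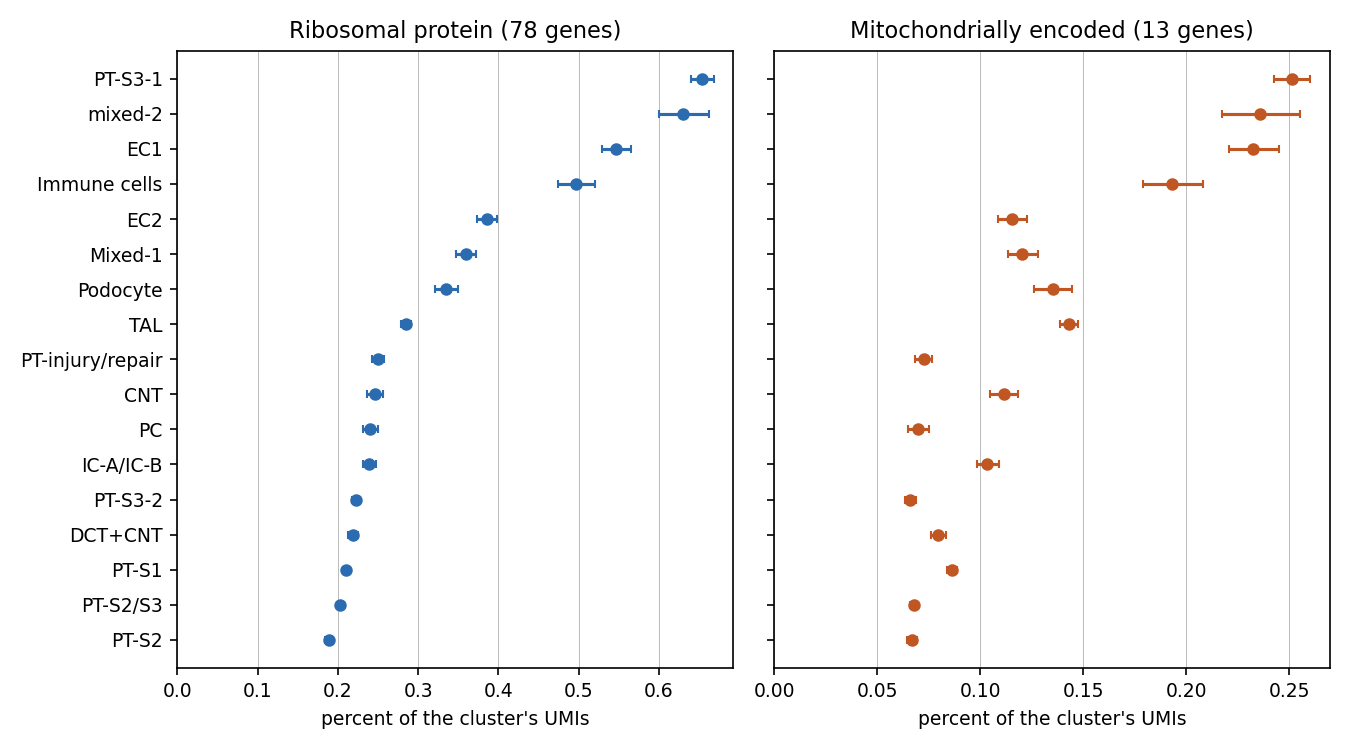
Share of each cluster's UMIs (percent, horizontal axes from 0) from 78 ribosomal protein genes (left) and 13 mitochondrially encoded genes (right) in the 17 clusters, with points for shares and bars for 95% Clopper-Pearson intervals. PT-S3-1, mixed-2, EC1 and immune cells lead both panels, while TAL stands higher on the right than its place in the left order.

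The balance between the kinds was not fixed. For each mitochondrially encoded UMI there were 1.99 ribosomal protein UMIs in TAL (interval 1.92 to 2.07), the lowest value of the 17 clusters. CNT followed at 2.21 and IC-A/IC-B, the intercalated cells, at 2.31. The highest values were 3.44 in PT-injury/repair (3.23 to 3.67), 3.43 in PC and 3.37 in PT-S3-2. The interval of TAL overlapped that of CNT, and those of the 4 highest clusters, EC2 at 3.34 included, overlapped each other.

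Single members followed the sum of their kind closely, with named exceptions. Of 78 ribosomal protein genes, 72 were highest in PT-S3-1, mixed-2 or EC1, and all 13 mitochondrially encoded genes were. These clusters lead the sums of the same genes, and no share of all genes highest there is given, so the counts are a description. Genes at large lay high there too. The median log2 fold change of all genes in the authors' deposited table was 0.39 in PT-S3-1, 1.19 in mixed-2 and 0.85 in EC1. Spearman's rho between a member's average and the sum of the other members over the 17 clusters had a median of 0.90 for ribosomal protein genes and 0.92 for mitochondrially encoded ones. It exceeded 0.8 for 68 of 78 and 11 of 13 members, and no share of all genes is given for it. The mitochondrially encoded exceptions were mt-Atp8 (0.53) and mt-Nd6 (0.64). mt-Atp8 was lowest in mixed-2 at 0.00789, from 1 UMI. Spearman's rho was below 0.5 for 3 ribosomal protein genes, Rpl10a (0.14), Rpl36a (0.44) and Rpl3l (-0.62). Rpl10a, a large subunit protein, averaged 0.176 in PT-S3-1 and 0.0486 in CNT, and its averages of 0.0917 in PT-S2/S3 and 0.103 in PT-S3-2 exceeded those of 0.0663 in immune cells and 0.0603 in EC2. Rpl3l, a large subunit paralog known from striated muscle, had 41 UMIs in all clusters together, too few for an order.

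**Figure D2:**
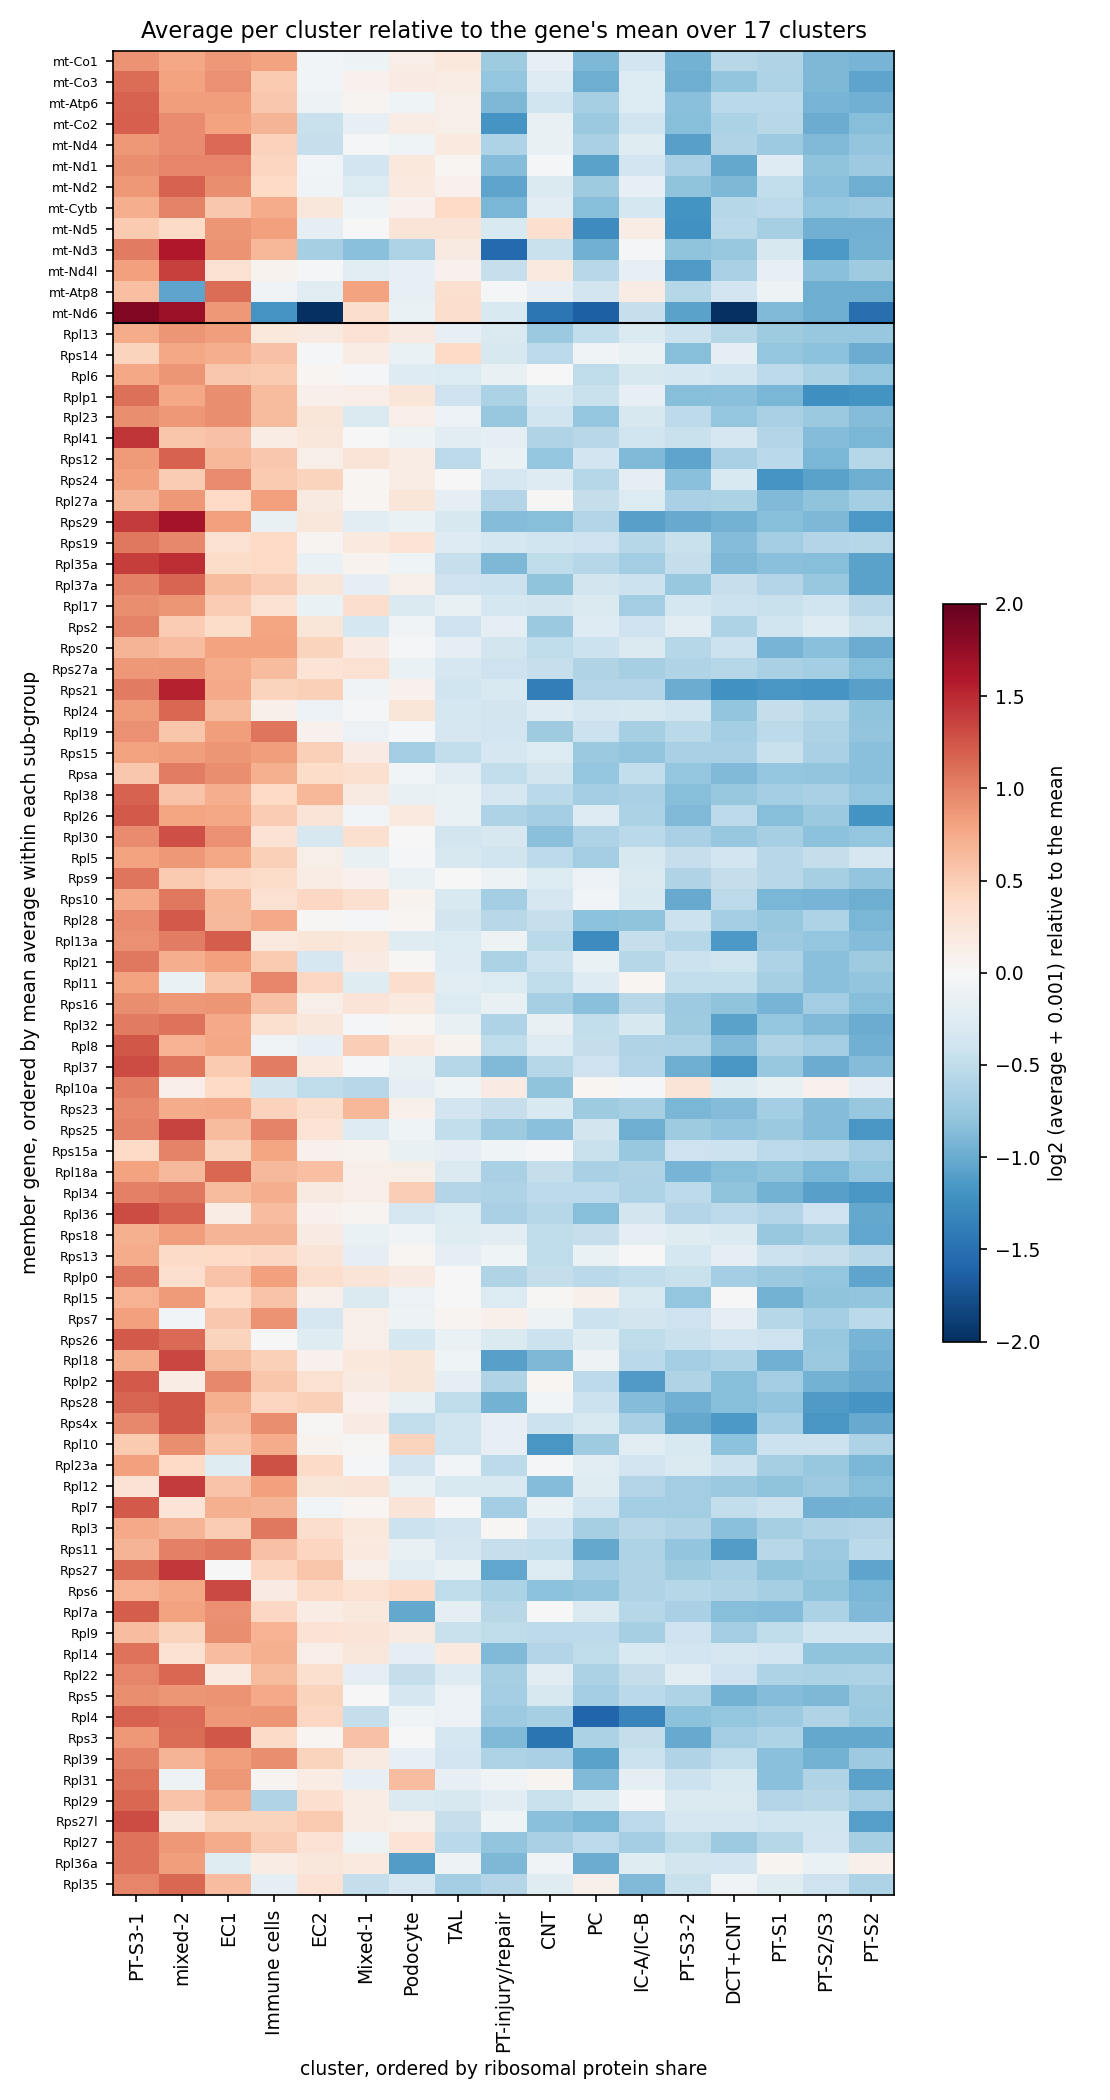
Average of each member in each cluster, as log2 (average + 0.001) relative to the member's mean over the 17 clusters (colour scale cut at -2 and 2), with 13 mitochondrially encoded genes above the line and 75 ribosomal protein genes below it. Rpl3l, with 41 UMIs, is among those left out. Most rows are red in the 4 leading columns, and Rpl10a, Rpl36a, mt-Atp8 and mt-Nd6 depart from that.

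Among members, levels per length spanned a wide range. Averages are normalised UMIs per nucleus, here a mean over the 17 clusters divided by the length of the principal mRNA in kilobases, although this assay counts a molecule once near its tail whatever its length. On that scale mt-Co3 had 0.627, mt-Atp6 0.409 and mt-Co1 0.395, the subunits of complexes IV and V with the highest values. mt-Nd5 was at 0.0529 and mt-Nd6, the lowest mitochondrial member, at 0.0266. The median was 0.149 for mitochondrially encoded and 0.113 for ribosomal protein genes. Among the ribosomal protein genes with the highest averages, Rpl13 had 0.219 per kilobase, Rps14 0.246, Rpl6 0.114 and the stalk gene Rplp1 0.286. The 5 with the lowest averages were Rpl3l at 0.00139, Rpl35 at 0.0334, Rpl36a at 0.0721, Rpl27 at 0.0628 and Rps27l at 0.0808. Rpl41, the shortest of the ribosomal protein genes by coding length, had the highest value per kilobase among ribosomal protein genes at 0.307. Ribosomal protein genes have many processed pseudogenes, and reads that match both were not separable here, so levels between members are uncertain.

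Genes were called in a cluster when the p-value in the authors' deposited table was under 0.05 for the cluster against all other nuclei. In PT-S2/S3 all 13 mitochondrially encoded genes and 28 of 78 ribosomal protein genes were called lower by that table, where 13.0% of all genes were called lower. Among them mt-Nd3 had the lowest log2 fold change at -1.57 and Rpl37a the highest at -0.87 in the authors' deposited table. In PT-S1, where 9.77% of all genes were called lower, Rps21 (-1.14) and Rps24 (-1.11) were called in the authors' deposited table. In PT-S2, with 7.63% of all genes called lower, mt-Nd6 (-1.99), mt-Co3, mt-Atp6 (-1.28), Rpl26 and Rps29 were called in the authors' deposited table. mt-Cytb was called lower in PT-S3-2 (-1.45, with 7.5% of all genes) and mt-Nd6 in DCT+CNT (-2.77, with 5.44%) in the authors' deposited table. The DCT+CNT value of mt-Nd6 rests on 2 UMIs.

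No member was called higher in any of the 17 clusters at that threshold. Of all genes, the share called higher was 2.9% in PT-S1, 3.05% in PT-S2/S3, 1.02% in PT-S2, 3.62% in PT-S3-2, 4.61% in PT-injury/repair, 5.27% in TAL and 3.9% in DCT+CNT. It was 1.43% in CNT, 3.14% in PC, 3.39% in EC1, 5.84% in EC2, 3.27% in IC-A/IC-B, 6.16% in Mixed-1, 0.0899% in mixed-2, 4.25% in immune cells and 1.74% in podocytes. No member was called lower in the other 12 clusters. There the share of all genes called lower was 0.621% in PT-injury/repair, 5.52% in TAL, 0.119% in CNT, 1.08% in PC, 0.507% in EC2, 1.84% in IC-A/IC-B and 0.196% in Mixed-1, and 0.0% in PT-S3-1, EC1, mixed-2, immune cells and podocytes. In PT-S3-1 all 78 ribosomal protein genes had a log2 fold change above 0 in the authors' deposited table, where 66.7% of all genes did. Their median there was 1.02, against 0.39 for all genes. The smallest deposited p among those 78 was 0.366, and 0.327% of all genes were called higher there. All 13 mitochondrially encoded genes were above 0 too, and the authors' deposited table put their median at 0.80. In mixed-2 all 78 ribosomal protein genes were above 0, where 79.4% of all genes were. Their median in mixed-2 was 0.98 and that of the mitochondrially encoded genes 0.78 in the authors' deposited table, both below the 1.19 of all genes. In PT-S2/S3, 77 of the 78 were below 0, where 57.1% of all genes were, and in PT-S1 all 78 were, where 55.1% of all genes were.

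Other RNAs moved over the clusters with these sums. Kap, an androgen-regulated secreted protein of the proximal tubule, had an average of 8.03 in PT-S3-1 and 6.61 in mixed-2. The remaining 5 proximal tubule clusters had 0.811 to 1.74, and immune cells had 2.49. The 4 globin genes, markers of red blood cells, summed to 0.349 in PT-S3-1 and to 0.0441 in PT-S2, the lowest. The 3 TAL markers summed to 2.99 in PT-S3-1, to between 0.350 and 0.951 in the remaining 5 proximal tubule clusters and to 45.0 in TAL itself, and 1 of the 3 was at 0 in PT-S1. Over 17 clusters the log2 average of Kap had a Pearson r of 0.89 with the ribosomal protein sum and 0.80 with the mitochondrially encoded sum. For Hbb-bs, a beta globin gene, r was 0.94 and 0.85 in that order. Malat1, an RNA retained in the nucleus, averaged 98.0 to 269 and had an r of -0.56 with the ribosomal protein sum. The log2 UMI total of a cluster had an r of -0.77 with the ribosomal protein sum and -0.71 with the mitochondrially encoded sum. The part of these RNAs and of depth in the cluster order was not tested. The third-segment markers Slc7a13, Slc22a7, Cyp7b1 and Slc5a8 summed to 10.4 in PT-S3-1 and 11.1 in PT-S3-2, so both clusters carry the segment of their name.

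In proximal tubule nuclei after cisplatin, mitochondrially encoded transcripts were at about 0.67 of their level in untreated kidneys. The 13 genes summed to 1.62 normalised UMIs per nucleus in Cis9w (4971 UMIs), against 2.43 in CT9w (4446 UMIs), a ratio of 0.669 (interval 0.643 to 0.697). They were 0.0581% of UMIs in Cis9w and 0.0868% in CT9w. The ratio was under 1 for 12 of 13 genes, where 43.7% of all genes had a ratio under 1, and 44.6% of genes at the expression floor. The interval of the ratio lay below 1 for 12 of 13 genes as well. Such an interval was had by 9.58% of all genes and 16.1% of genes at the floor. Their median in the authors' deposited table was -0.56 on the log2 scale, against 0.03 for the 10656 genes at the floor. The floor is 0.0154, set so that 1 gene in 2 has a higher mean over both pools, and 11 of the 13 genes reached it. Of the 13, 2 were called lower in the authors' deposited table, mt-Nd6 and mt-Nd3, where 1.14% of all genes were. None was called higher, where 0.995% of all genes were. Both columns were scaled to 1 total, so the ratio is one of shares of UMIs. The pools cannot separate fewer molecules per nucleus from more of the other RNA or from a changed mix of nuclei.

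Complex I, the NADH dehydrogenase, has 7 of its subunits on the mitochondrial genome. They summed to 0.487 in Cis9w and 0.724 in CT9w, a ratio of 0.673 (0.624 to 0.725), and the ratio was under 1 for each of the 7. mt-Nd6 had 13 UMIs and an average of 0.00425 in Cis9w, against 32 UMIs and 0.0175 in CT9w. The authors' deposited table gives it a log2 fold change of -1.98 with p = 0.00689, and the interval of its ratio of 0.243 ran from 0.117 to 0.476. mt-Nd6 is the only member read from the opposite strand of the mitochondrial genome, at chrM:13552-14070, it lies below the floor, and no source used here says whether counting used strand. mt-Nd3 averaged 0.0226 in Cis9w (69 UMIs) and 0.0546 in CT9w (100 UMIs), a log2 fold change of -1.27 with p = 0.00983 in the authors' deposited table.

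The other 5 subunits of complex I were not called. mt-Nd1 averaged 0.112 in Cis9w and 0.201 in CT9w, a ratio of 0.560 (0.482 to 0.650), with p = 0.0755 in the authors' deposited table. mt-Nd2 averaged 0.120 in Cis9w and 0.156 in CT9w. mt-Nd5 averaged 0.0614 in Cis9w and 0.0906 in CT9w. mt-Nd4 and mt-Nd4l, which overlap by 7 bases and are carried on 1 mRNA in mammals, were closest to 1 among these subunits together with mt-Nd2. mt-Nd4 averaged 0.135 in Cis9w and 0.160 in CT9w, a ratio of 0.844 (0.725 to 0.984). mt-Nd4l averaged 0.0317 in Cis9w and 0.0442 in CT9w, a ratio of 0.717 (0.528 to 0.975).

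Complex IV, cytochrome c oxidase, gave the most UMIs of the 4 complexes. Its 3 subunits summed to 0.836 in Cis9w (2559 UMIs) and 1.27 in CT9w (2319 UMIs), a ratio of 0.661 (0.624 to 0.699). mt-Co1, the catalytic core, averaged 0.373 in Cis9w and 0.596 in CT9w, a ratio of 0.626 (0.575 to 0.680). mt-Co2, which takes electrons from cytochrome c, averaged 0.141 in Cis9w and 0.238 in CT9w, a ratio of 0.593 (0.518 to 0.679). mt-Co3 averaged 0.323 in Cis9w and 0.432 in CT9w, a ratio of 0.746 (0.679 to 0.820). All 3 intervals lay below 1, and none of the 3 was called, with p of at least 0.139 in the authors' deposited table.

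mt-Cytb, the sole mitochondrially encoded subunit of complex III, averaged 0.104 in Cis9w and 0.156 in CT9w, a ratio of 0.666 (0.566 to 0.784). In complex V, the ATP synthase, mt-Atp6 averaged 0.182 in Cis9w and 0.267 in CT9w, a ratio of 0.679 (0.601 to 0.769). mt-Atp8 was the 1 member with a ratio above 1, at 1.15 (0.695 to 1.95), from 48 UMIs in Cis9w and 25 UMIs in CT9w. It shares its last 43 bases with mt-Atp6 and lies below the floor. The ratios of complexes I, III, IV and V, 0.673, 0.666, 0.661 and 0.702, had overlapping intervals.

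**Figure D3:**
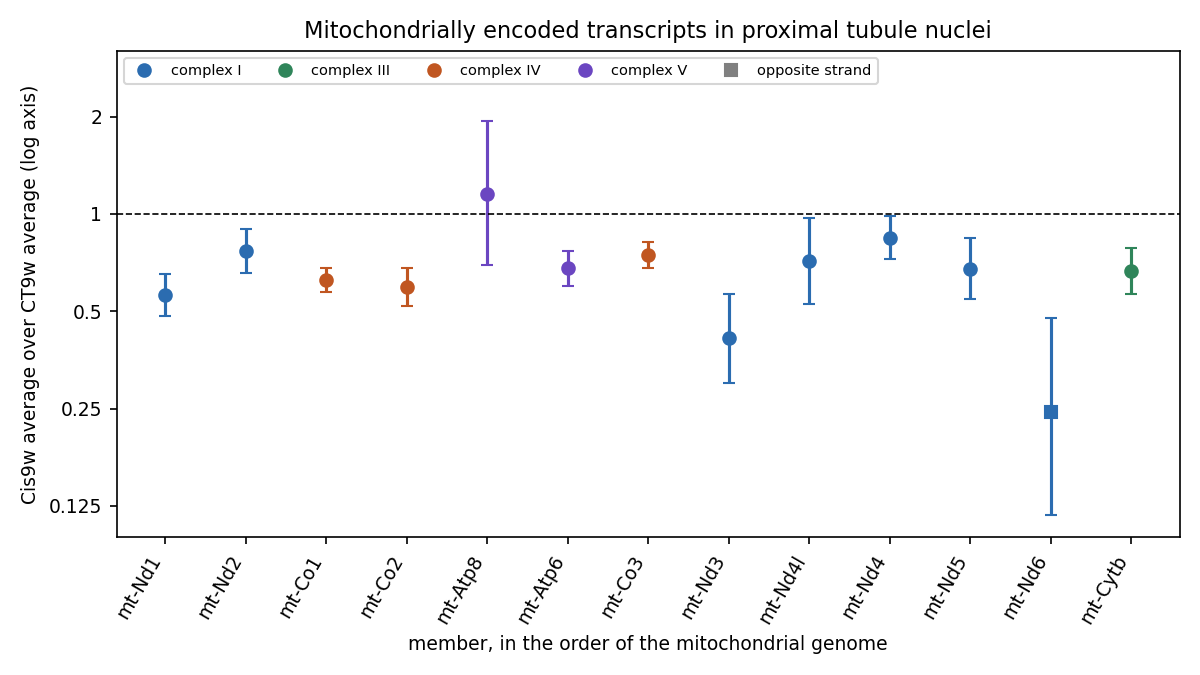
Ratio of the Cis9w average to the CT9w average (log axis) for the 13 mitochondrially encoded genes in the order of the mitochondrial genome, coloured by respiratory complex, with 95% Clopper-Pearson intervals from UMI counts. The intervals of 12 genes lie below 1, mt-Nd6 on the opposite strand is lowest at 0.243, and mt-Atp8 spans 1.

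Ribosomal protein transcripts were closer to even between the groups. The 78 genes summed to 5.39 normalised UMIs per nucleus in Cis9w (16481 UMIs), against 6.15 in CT9w (11271 UMIs), a ratio of 0.875 (0.855 to 0.897). No ribosomal protein gene was called in either direction in the authors' deposited table, where 1.14% of all genes were called lower and 0.995% higher, so 0 of 78 lies near the share of all genes. The smallest p among the 78 was 0.0800 in the authors' deposited table, for Rpl39. Their median in the authors' deposited table was -0.21 on the log2 scale over all 78 and -0.19 over the 77 at the floor. The interval of the ratio lay below 1 for 30 of the 78 genes, where 9.58% of all genes and 16.1% of genes at the floor had such an interval. It lay above 1 for 2 of the 78, where 12.4% of all genes and 19.6% of genes at the floor did. Each mitochondrially encoded UMI was matched by 3.32 ribosomal protein UMIs in Cis9w (3.21 to 3.42) and 2.54 in CT9w (2.45 to 2.63).

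Large subunit genes (44) summed to 2.95 in Cis9w and 3.44 in CT9w, a ratio of 0.857 (0.830 to 0.885). Small subunit genes (31) summed to 2.24 in Cis9w and 2.48 in CT9w, a ratio of 0.903 (0.870 to 0.938). The intervals of both subunits overlapped. The ratio was under 1 for 37 of 44 large subunit genes and 18 of 31 small subunit genes. The 3 stalk genes, Rplp0, Rplp1 and Rplp2, summed to 0.192 in Cis9w and 0.225 in CT9w, a ratio of 0.852 (0.750 to 0.969).

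The members with the lowest fold changes were mostly short proteins. Rpl39, a large subunit protein at the mouth of the tunnel through which nascent chains leave, had 81 UMIs in Cis9w and 98 UMIs in CT9w, a ratio of 0.495 (0.364 to 0.671). Rps27, a zinc-binding small subunit protein, had 112 UMIs in Cis9w and 117 UMIs in CT9w, a ratio of 0.573 (0.438 to 0.749). Rps29, which sits near the head of the small subunit, had 182 UMIs in Cis9w and 184 UMIs in CT9w, a ratio of 0.592 (0.480 to 0.731). With the deeper Cis9w pool, near-equal UMI counts mean a lower average. Rpl41, the shortest, had 257 UMIs in Cis9w and 255 UMIs in CT9w, a ratio of 0.603 (0.505 to 0.720). The 4 intervals overlapped each other.

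At the other end stood longer proteins. Rps4x, an X-linked small subunit protein (chrX:102184941-102189394, minus strand), had 169 UMIs in Cis9w and 75 UMIs in CT9w, a ratio of 1.35 (1.02 to 1.8). Rpl10a had 391 UMIs in Cis9w and 191 UMIs in CT9w, a ratio of 1.23 (1.03 to 1.46). These were the 2 members whose interval lay above 1. Rps3, at the entry of the mRNA channel and also known as a DNA repair factor, had a ratio of 1.20 (0.882 to 1.64), Rps7 one of 1.14 (0.911 to 1.43) and Rps9 one of 1.10 (0.895 to 1.35). None of these 5 was called, each with p = 1 in the authors' deposited table.

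**Figure D4:**
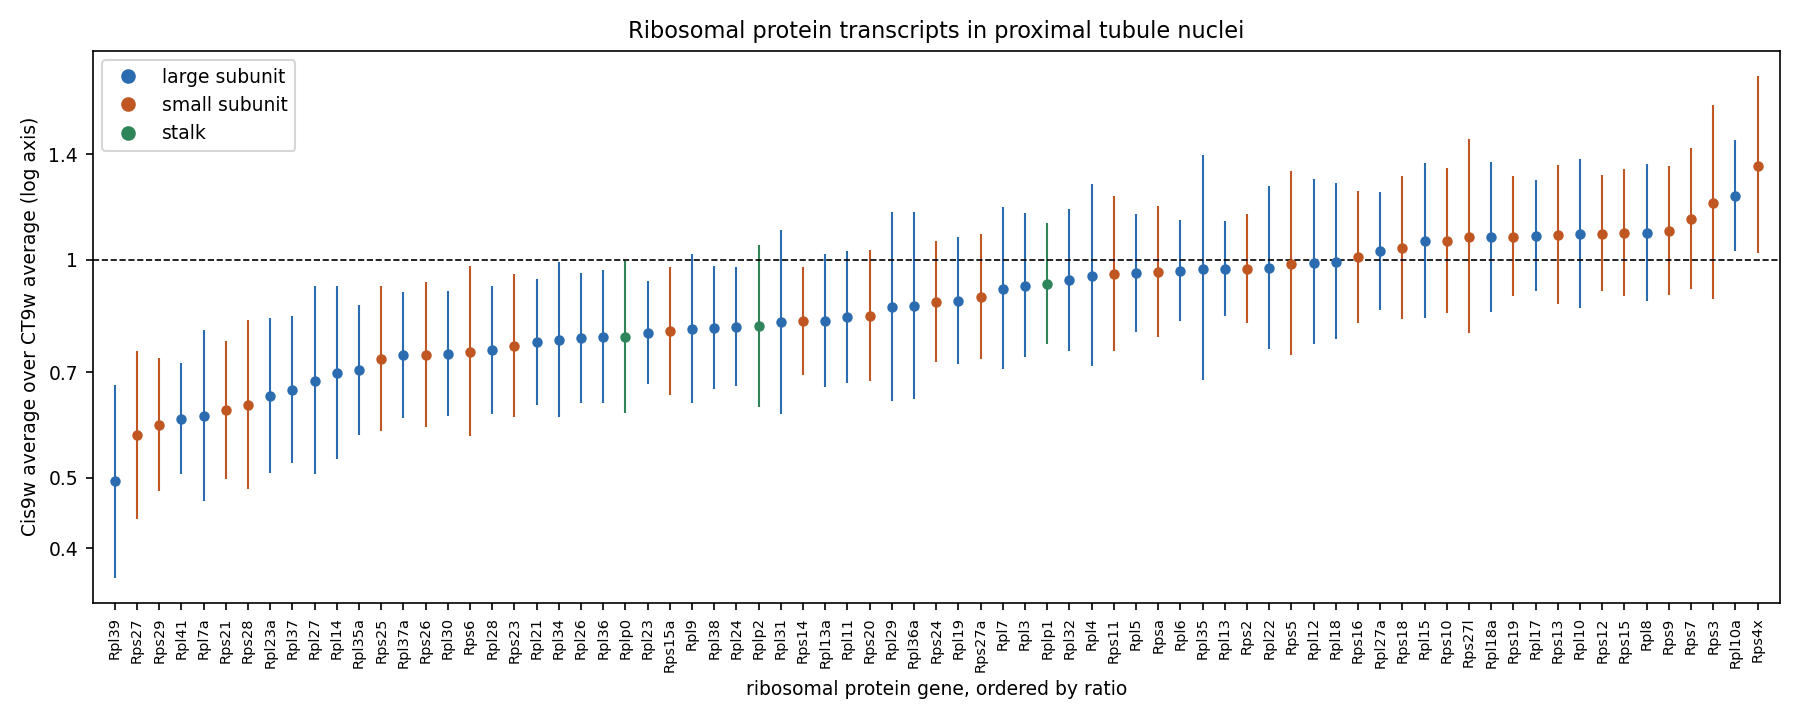
Ratio of the Cis9w average to the CT9w average (log axis) for 75 ribosomal protein genes in rising order, coloured by subunit, with 95% Clopper-Pearson intervals from UMI counts. Rpl3l, below the floor, is among those left out. The ratios run from 0.495 for Rpl39 to 1.35 for Rps4x, and most members lie below 1.

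Coding length went with the ratio among the 77 members at the floor. The relation was looked for after the values were seen. Split by coding length, the 26 shortest members (78 to 402 bases) summed to 1.56 in Cis9w and 2.04 in CT9w, a ratio of 0.766 (0.734 to 0.80). The 26 in the middle (408 to 567 bases) summed to 1.91 in Cis9w and 2.14 in CT9w, a ratio of 0.894 (0.858 to 0.931). The 25 longest (579 to 1260 bases) summed to 1.91 in Cis9w and 1.98 in CT9w, a ratio of 0.969 (0.930 to 1.01). The interval of the shortest members did not overlap the others, and that of the longest included 1. The ratio was under 1 for 24 of the 26 shortest, 17 of the 26 in the middle and 16 of the 25 longest. Over the 77 genes the log2 ratio had a Pearson r of 0.54 with log2 coding length, 0.35 with log2 mRNA length and 0.14 with the log2 mean average. The mRNA lengths are those of 1 annotated transcript per gene, such as 1613 bases for Rps24, which has 402 coding bases. The r with mRNA length therefore depends on the transcript taken. The genes share both pools, so r is a description. Rpl7a, with 801 coding bases and a ratio of 0.610 (0.465 to 0.799), and Rps27l, with 255 and 1.07, lay away from the trend.

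Of the clusters, PT-S3-1 and PT-S2/S3 were compared by the same split, which was made after the values were seen. PT-S2/S3 had the lowest share of neither kind, and no other pair of clusters is given. In PT-S3-1 the shortest members summed to 3.88 times (3.70 to 4.06) their level in PT-S2/S3, the middle ones to 2.99 times (2.85 to 3.13) and the longest to 2.93 times (2.79 to 3.07). The shortest members stood apart, and the intervals of the middle and the longest overlapped. In the same pair of clusters the mitochondrially encoded sum stood at 3.71 times, Kap at 5.07 times and Hbb-bs at 6.94 times.

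**Figure D5:**
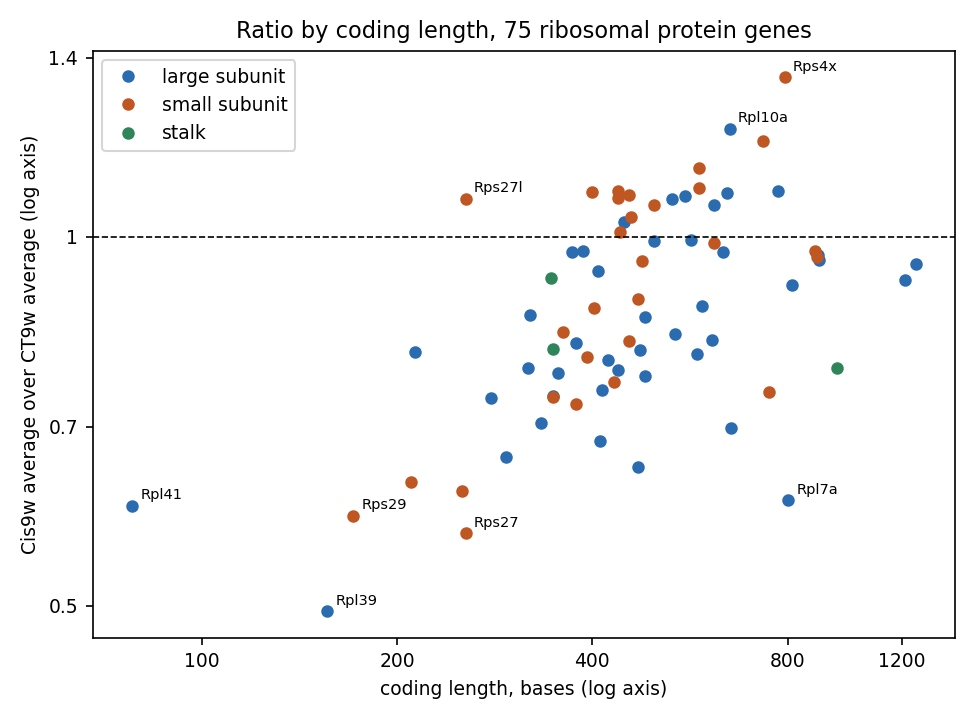
Ratio of the Cis9w average to the CT9w average against coding length in bases (both log axes) for 75 ribosomal protein genes, 1 point each, coloured by subunit. Rpl39, Rps29 and Rpl41 sit low at the left, Rps4x and Rpl10a high at the right, and Rps27l stands well above Rps27 at the same length of 255 bases.

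Within the paralog pair of equal coding length printed above, the values parted. Rps27l, known in other settings as a target of p53, had 122 UMIs and an average of 0.0399 in Cis9w, against 68 UMIs and 0.0371 in CT9w. Its ratio of 1.07 (0.792 to 1.47) had an interval above that of Rps27, which ended at 0.749, and neither gene was called. Over the clusters Rps27 was highest in mixed-2 at 0.166 and Rps27l in PT-S3-1 at 0.101, and both were lowest in PT-S2. Of the other pair, Rpl3 had 197 UMIs in Cis9w and 128 UMIs in CT9w, a ratio of 0.921 (0.734 to 1.16), and Rpl3l had 7 UMIs in Cis9w and 6 UMIs in CT9w, too few to compare. Of the 78 ribosomal protein genes, 29 hold a small nucleolar RNA within their span on the same strand in GENCODE M21. These 29 summed to a ratio of 0.917 (0.883 to 0.952), and the other 49 to 0.847 (0.821 to 0.874).

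Genes for ribosomal proteins, or named after them, whose symbols fall outside the naming rule spread over a like range. Rack1, the kinase anchor on the small subunit, had a ratio of 0.733 (0.592 to 0.910) and Rpl36al one of 0.735 (0.561 to 0.966). Fau was at 0.810 (0.677 to 0.971) and Rpl22l1 at 0.995 (0.730 to 1.36). Rpl7l1 was at 1.29 (1.02 to 1.63), and Rps27rt had 4 UMIs in Cis9w and 2 UMIs in CT9w. None of the 7 genes of this kind was called, and the median over the 6 at the floor was -0.38 on the log2 scale in the authors' deposited table. Rps3a1, noticed after its values were seen, was at 1.15 (0.931 to 1.42).

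Nuclear genes that make or handle these RNAs were counted by list. Of the 10656 genes at the floor, 190 were called lower and 161 higher in the authors' deposited table, so 0 or 1 call in a list of this size lies near the share of all genes. Of genes that control ribosomal protein mRNA translation, 1 of 13 at the floor was called. This was Mtor, the kinase that drives it, which fell to 0.599 in Cis9w, against 1.28 in CT9w, a log2 fold change of -1.09 with p = 0.00137 in the authors' deposited table. Of ribosome biogenesis genes 0 of 29 at the floor were called (a median log2 value of 0.12), and of translation factors with similar mRNAs 0 of 16 (-0.02). Of mitochondrial ribosome genes 0 of 67 were called (0.01), of genes for mitochondrial DNA upkeep and transcription 0 of 21 (0.02), and of those for mitochondrial RNA processing and decay 0 of 18 (0.01), all in the authors' deposited table.

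Some genes read as tracers of RNA from outside the nucleus also differed between the pools. Kap fell to 0.866 in Cis9w, against 3.22 in CT9w, with p = 1.43e-11 in the authors' deposited table. Kap is a product of the proximal tubule, so its value in this pool cannot be assigned to RNA from outside the nucleus. Hbb-bs fell to 0.0180 in Cis9w, against 0.0731 in CT9w, with p = 2.34e-07 in the authors' deposited table. The 4 globin genes summed to 0.0337 in Cis9w (103 UMIs) and 0.114 in CT9w (209 UMIs), a ratio of 0.295 (0.231 to 0.375), with none at 0 in either pool. The other tracers were not called: Gpx3 had a ratio of 0.965 (0.917 to 1.02), Spink1 0.840 (0.747 to 0.945) and Umod 0.656 (0.570 to 0.756), and Alb had 2 UMIs in Cis9w and 1 UMI in CT9w. Among nuclear-retained RNAs, Malat1 had a ratio of 1.16 (1.15 to 1.16), Neat1 1.29 (1.25 to 1.33) and Kcnq1ot1 1.02 (0.975 to 1.07), and none was called. The third-segment markers summed to 2.14 in Cis9w and 7.47 in CT9w, with 3 of 4 called lower. Over all genes, 1.14% were called lower and 0.995% higher. General proximal tubule markers summed to 30.8 in Cis9w and 27.6 in CT9w, with none called. First-segment markers summed to 8.94 in Cis9w and 7.46 in CT9w, with none called. Second-segment markers summed to 1.56 in Cis9w and 1.54 in CT9w, with 1 called lower. The TAL markers summed to 0.663 in Cis9w and 0.976 in CT9w, with none called. Marker sums of other cell types outside the proximal tubule lay on both sides. Those of intercalated cells (0.0817 in Cis9w, 0.0306 in CT9w) and endothelium (0.198 in Cis9w, 0.126 in CT9w) were higher in Cis9w. So were those of CNT, PC, podocytes and stroma, with 1 PC marker called higher. Those of immune cells (0.0784 in Cis9w, 0.111 in CT9w) and DCT (0.464 in Cis9w, 0.499 in CT9w) were lower in Cis9w. The injury markers summed to 0.470 in Cis9w and 0.0508 in CT9w, all 4 called higher, and Krt20 was at 0 UMIs in CT9w. These marker calls are those of the authors' deposited table. The part of these RNAs and of the mix of segments in the values of the 91 members was not tested.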

How the data were processed

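Nuclei were counted as UMIs. The submitters' processing notes name Cell Ranger 5.0.1 and mm10. Clustering, filters, the treatment of doublets and of free RNA, and the test behind the p-values are stated in no source used here. Per the file headers, each gene has an average, a p-value and a log2 fold change. In the proximal tubule table the authors deposited averages (a signal: UMIs per nucleus after scaling, with 1 total for both columns), and in the cluster table the averages, handled here as a score, were deposited with another total, so levels were not compared across tables. UMI sums were recovered from the step between low values (at least 99.995% of genes whole within 0.1 UMI) and the recovery was tested on simulated data. Ratios of averages carry Clopper-Pearson intervals, with scipy 1.17.1. A gene counted as called at a deposited p under 0.05. No test across samples was run, since each group has 1 column, and the planned count test could not be run for that reason. Gene symbols are the authors' own. All 91 members matched GENCODE M21, and lengths are of the principal transcript. Named genes are all mitochondrially encoded genes, the highest and lowest ribosomal protein genes by level and by fold change, called members, paralog pairs and 3 small lists. A few members and list genes are not reported singly here but stay in the sums and counts. The members and lists were chosen with earlier results of these data known. Alternatives were other thresholds, floors, scalings, pseudocounts and summaries.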

Additional observations from a re-analysis of the deposited data

How the results depend on the processing

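No paired analysis was possible because no column belongs to 1 sample, and leaving out a replicate was not possible for the same reason. The shares in PT-S3-1 over the lowest cluster and the ratios of the summed UMIs moved by less than their counting intervals with the other kind taken out of the total, with the UMIs rescaled or without the 2 highest members. The correlation of both sums over the clusters, 0.94, was 0.89 by Spearman, 0.90 without the 6 proximal tubule clusters, 0.90 without the 2 clusters farthest from the median and 0.93 without Mixed-1 and mixed-2. Over the clusters, the 32 lower calls of ribosomal protein genes became 10 at a deposited p under 0.01 and 19 with an absolute log2 fold change of at least 1, and the 18 lower calls of mitochondrially encoded genes became 10 at p under 0.01. The calls of mt-Nd6 and mt-Nd3 held under both. The median log2 fold change of ribosomal protein genes, -0.19, was -0.21 with no floor, -0.14 over the 26 members at the 75th percentile, -0.23 with the median of all genes subtracted, and -0.21 as a mean. That of mitochondrially encoded genes, -0.56, was -0.57 over the 8 members at the 75th percentile, -0.59 with the median subtracted and -0.62 as a mean. The r of the ratio with coding length, 0.54, was 0.35 with mRNA length, 0.38 without the 5 shortest members and 0.38 without the 5 lowest ratios, settings chosen after seeing the data. The cause of these shifts was not tested. Depth limits mt-Nd6, mt-Atp8 and Rpl3l most.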

Other observations

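The genes outside the members whose averages followed the sums most closely over the 17 clusters were ranked by Spearman's rho among the 8454 genes with at least 500 UMIs, a rule chosen after seeing the data. For the mitochondrially encoded sum the leading genes were AY036118 (0.96), Gm42418 (0.94) and Cmss1 (0.94), and for the ribosomal protein sum AY036118 (0.95), the actin gene Actb (0.95) and Camk1d (0.94). Gm42418 and AY036118 are annotated over a ribosomal RNA repeat, and their UMIs are usually read as ribosomal RNA. Gm42418 had an average of 26.0 in PT-S3-1, against 9.14 in PT-S2/S3. Between the proximal tubule pools these genes lay on both sides of 1: Gm42418 averaged 15.3 in Cis9w and 10.3 in CT9w, a ratio of 1.49 (1.47 to 1.52), AY036118 had a ratio of 0.889 (0.835 to 0.946) and Camk1d one of 0.760 (0.718 to 0.805). None of the 3 was called, with p of at least 0.432 in the authors' deposited table.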
